A study of Mus musculus with 12 samples.

Results

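The genes described here encode inflammatory messengers and acute-phase proteins, and their levels were read from arrays of cultured mouse cerebellar granule cells. The 10 symbols were Ccl2, Ccl5, Ccl7, Cxcl1 and Cxcl14 (chemokines), Il1b, Il6 and Tnf (cytokines), and Lcn2 and C3 (acute-phase and complement genes). A probe set was taken when its annotation named exactly 1 of these symbols. This gave 12 of the 45101 probe sets and 9 of the 10 genes, out of 18193 genes with a probe set of their own. Cxcl1 had 3 probe sets, Cxcl14 had 2 and the other genes had 1. C3 was not analysed here.

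All 12 samples are labelled as cultures from lethargic mice on a 129/SvJ background, taken at postnatal day 7, while the growth protocol also names BALB/c mice. In lethargic mice Cacnb4 is mutated, which encodes β4, an auxiliary subunit of voltage-gated calcium channels, and the eGFP control cultures came from such mice too. Lentivirus with the splice variant β4a, β4b or β4e, or with eGFP as the control, was given for 12 hours right after plating, and RNA was taken after 9 days in vitro. The cultures also received Ara-C, a drug that kills dividing cells and was used against non-neuronal cells. Each of the 4 groups had 3 arrays, with replicate numbers 1 to 3 in the titles of every group. The labels do not say what a number stands for, and the promoter of the vectors, the share of transduced cells and the number of mice per culture were not stated in the labels. The p-values therefore measure only the spread between these arrays, which may in part be technical. The precision of each value is limited by the number of arrays.

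Chemokines are small secreted proteins that attract leukocytes: Ccl2 and Ccl7 draw monocytes, Ccl5 draws T cells and monocytes, and Cxcl1 draws neutrophils. Il1b, Il6 and Tnf are cytokines that start or spread inflammation. In the brain these genes are known mainly from microglia and from reactive astrocytes, and cultured fibroblast-like and endothelial cells can express several of them. NF-kB factors drive the transcription of many of them, and C/EBP and STAT3 factors take part in the acute-phase response, of which Lcn2, a protein that binds bacterial siderophores and so keeps iron from bacteria, is one of the products.

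The promoters of 3 members are shown because these genes, among the members with a sequence, moved most between arrays and carry letters of the NF-kB type. Sequences are RefSeq's for GRCm38.p6, and 7 of the 10 symbols matched. Each run holds the 250 bases before the gene's start, from 5′ to 3′ on the gene's strand, in lower case, with matches to an NF-kB type pattern on either strand in capitals (3 G, any 5 bases, then 2 C).
Cxcl1 (chr5:90890995-90891244, plus strand): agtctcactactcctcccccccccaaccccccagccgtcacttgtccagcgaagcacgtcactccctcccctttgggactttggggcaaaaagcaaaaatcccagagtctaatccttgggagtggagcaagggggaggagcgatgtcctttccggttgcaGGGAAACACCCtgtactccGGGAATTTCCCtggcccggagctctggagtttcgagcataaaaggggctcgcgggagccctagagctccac
Il6 (chr5:30012864-30013113, plus strand): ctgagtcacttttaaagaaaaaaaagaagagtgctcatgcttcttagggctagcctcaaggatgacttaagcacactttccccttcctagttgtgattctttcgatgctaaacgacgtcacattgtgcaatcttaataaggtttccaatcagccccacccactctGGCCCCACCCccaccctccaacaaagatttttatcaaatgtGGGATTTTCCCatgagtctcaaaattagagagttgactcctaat
Lcn2 (chr2:32387740-32387989, minus strand): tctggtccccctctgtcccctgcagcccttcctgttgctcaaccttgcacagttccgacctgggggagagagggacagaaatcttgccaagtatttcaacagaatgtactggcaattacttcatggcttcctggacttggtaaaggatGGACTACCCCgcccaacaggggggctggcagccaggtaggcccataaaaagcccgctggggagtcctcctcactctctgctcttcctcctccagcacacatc
The Cxcl1 window held 2 stretches in capitals, each made of overlapping matches on the 2 strands, with GGGAATTTCC at bases -71 to -62 and GGGAAACACC at -90 to -81, counted back from the gene's start. The Il6 window held GGGATTTTCC at -44 to -35 and a second match at -85 to -76. The Lcn2 window held 1 match, at -102 to -93. Of 32851 promoter windows of this length, 45.8% held the NF-kB type pattern, so that a match is common. Il6 also held TGANTCA (AP-1 type, in 6.7% of windows), and Il6 and Lcn2 each held TTNNGNAA (C/EBP type, in 36.8%). TTCNNNGAA (STAT type, in 7.0%) was searched too and was in none of these 3 windows. No match of one motif overlapped a match of another in the members' windows. A match is a description of the letters and does not show binding.

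All values below are log2 intensities on the scale the authors deposited, where 1 unit is a doubling. A value above 4 was counted as detected. A probe set was tested when at least 3 of the 12 arrays were above 4, which 23044 of all probe sets passed. Of the members, 10 of the 12 probe sets and 7 of the 9 measured genes passed, and Il1b and Tnf did not. Ccl7 and Il6 passed through arrays of replicate numbers 1 and 2 only, since number 3 was below 4 for both on all 4 arrays.

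The arrays of the whole series showed granule cell markers at high levels: Gabra6, a GABA receptor subunit of granule cells, was between 13.58 and 14.02 on all 12 arrays. The Cacnb4 probe sets read between 9.41 and 12.24 in all groups, the eGFP controls included, so they do not check the labels. Arrays that shared a replicate number resembled each other: all 18 such pairs of arrays deviated together from their group means (r across probe sets, 0.699 to 0.884). Pairs that differed in number and group reached at most 0.146. Deviations from a group mean sum to 0 within the group, which by itself pushes these other pairs down, so their low values add little. The numbers also differed in the sex-linked genes, which were looked at after their values were seen. Xist, the RNA of the inactive X chromosome of females, was between 11.83 and 12.07 on the 4 arrays of number 3 (probe set 1427262_at) and between 2.05 and 2.59 on the other 8. Kdm5d, a Y-linked gene, was on its probe set 1424903_at between 7.94 and 8.21 on the arrays of number 1, between 7.14 and 7.42 on those of number 2 and between 5.85 and 6.31 on those of number 3. The other Kdm5d probe sets stayed near background on all 12 arrays. Eif2s3y, another Y-linked gene (1417210_at), was between 10.17 and 10.40 in number 1, between 10.51 and 10.79 in number 2 and between 9.88 and 10.15 in number 3, so it differed less than Kdm5d and was highest in number 2. Xist and Kdm5d thus moved with the replicate number, alike in the 4 groups.

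Lcn2, the siderophore-binding protein, lay near the top of the scale. Its probe set 1427747_a_at read 13.93, 14.01 and 13.31 in β4a cultures (replicate numbers 1, 2 and 3), 14.04, 14.02 and 12.99 in β4b cultures and 14.24, 14.19 and 12.62 in β4e cultures, against 14.00, 13.87 and 12.70 in eGFP cultures. The lowest array of every group was that of number 3, and the 4 groups overlapped. Its group means were 13.75 ± 0.38 for β4a, 13.68 ± 0.60 for β4b and 13.68 ± 0.92 for β4e, against 13.52 ± 0.71 for eGFP (SD, n = 3 each).

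Cxcl1, the neutrophil chemokine, was also far above the detection level. Probe set 1419209_at read 11.88, 11.21 and 10.29 in β4a, 11.96, 11.14 and 9.72 in β4b and 11.87, 11.28 and 9.21 in β4e cultures, against 11.76, 10.80 and 8.92 in eGFP cultures. Within each replicate number the eGFP array was the lowest of the 4, and in every group number 1 was highest and number 3 lowest. The group means were 11.13 ± 0.80, 10.94 ± 1.13 and 10.79 ± 1.40 for β4a, β4b and β4e, against 10.49 ± 1.45 for eGFP (SD, n = 3 each). The other Cxcl1 probe sets, 1457644_s_at and 1441855_x_at, ranged from 6.44 to 10.45 and from 4.32 to 6.03. The suffixes of their names mark probes that may also bind other transcripts.

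Ccl2, the monocyte chemokine, read 8.43, 6.81 and 6.13 in β4a, 8.18, 6.65 and 5.94 in β4b and 8.07, 7.03 and 5.21 in β4e cultures, against 8.51, 6.55 and 5.31 in eGFP cultures. Here the eGFP array was the highest of number 1 and the lowest of number 2. Ccl7, whose gene lies beside Ccl2 in the chemokine cluster and whose protein shares a receptor with it, read 5.54, 4.44 and 3.81 in β4a, 5.44, 4.31 and 3.88 in β4b and 5.49, 4.37 and 3.68 in β4e cultures, against 5.08, 4.10 and 3.78 in eGFP cultures. The eGFP array was the lowest of numbers 1 and 2 for Ccl7, and all 4 arrays of number 3 were below 4. Ccl5 lay close to the detection level, with values from 3.87 to 4.76, and its groups overlapped.

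Cxcl14, a chemokine that is made constitutively in several tissues, lay just above the detection level. Probe set 1418457_at read 4.67, 4.16 and 4.41 in β4a, 5.19, 4.77 and 5.29 in β4b and 5.01, 4.88 and 4.44 in β4e cultures, against 4.89, 4.17 and 4.59 in eGFP cultures. All 3 β4b arrays were above the eGFP array of the same number, and the lowest β4b array lay below the highest eGFP array. The other probe set, 1418456_a_at, ranged from 3.79 to 4.38 without that pattern.

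Il6, the cytokine that drives the acute-phase response in the liver, ranged more widely than any other member. It read 6.17, 4.82 and 2.83 in β4a, 6.84, 4.08 and 2.63 in β4b and 6.65, 4.63 and 2.79 in β4e cultures, against 4.76, 4.66 and 2.35 in eGFP cultures. In number 1 all 3 variant arrays were above the eGFP array by more than 1 unit. In number 2 the groups lay close together, and in number 3 every array was near background. Il1b was above 4 on 1 of the 12 arrays, with a range of 3.48 to 4.13, and Tnf on 0 of 12, with a range of 3.09 to 3.74. Levels of these 2 cytokines near background have no reliable order. In all, 4 genes (Ccl2, Cxcl1, Cxcl14 and Lcn2) were above 4 on every array.

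**Figure D1:**
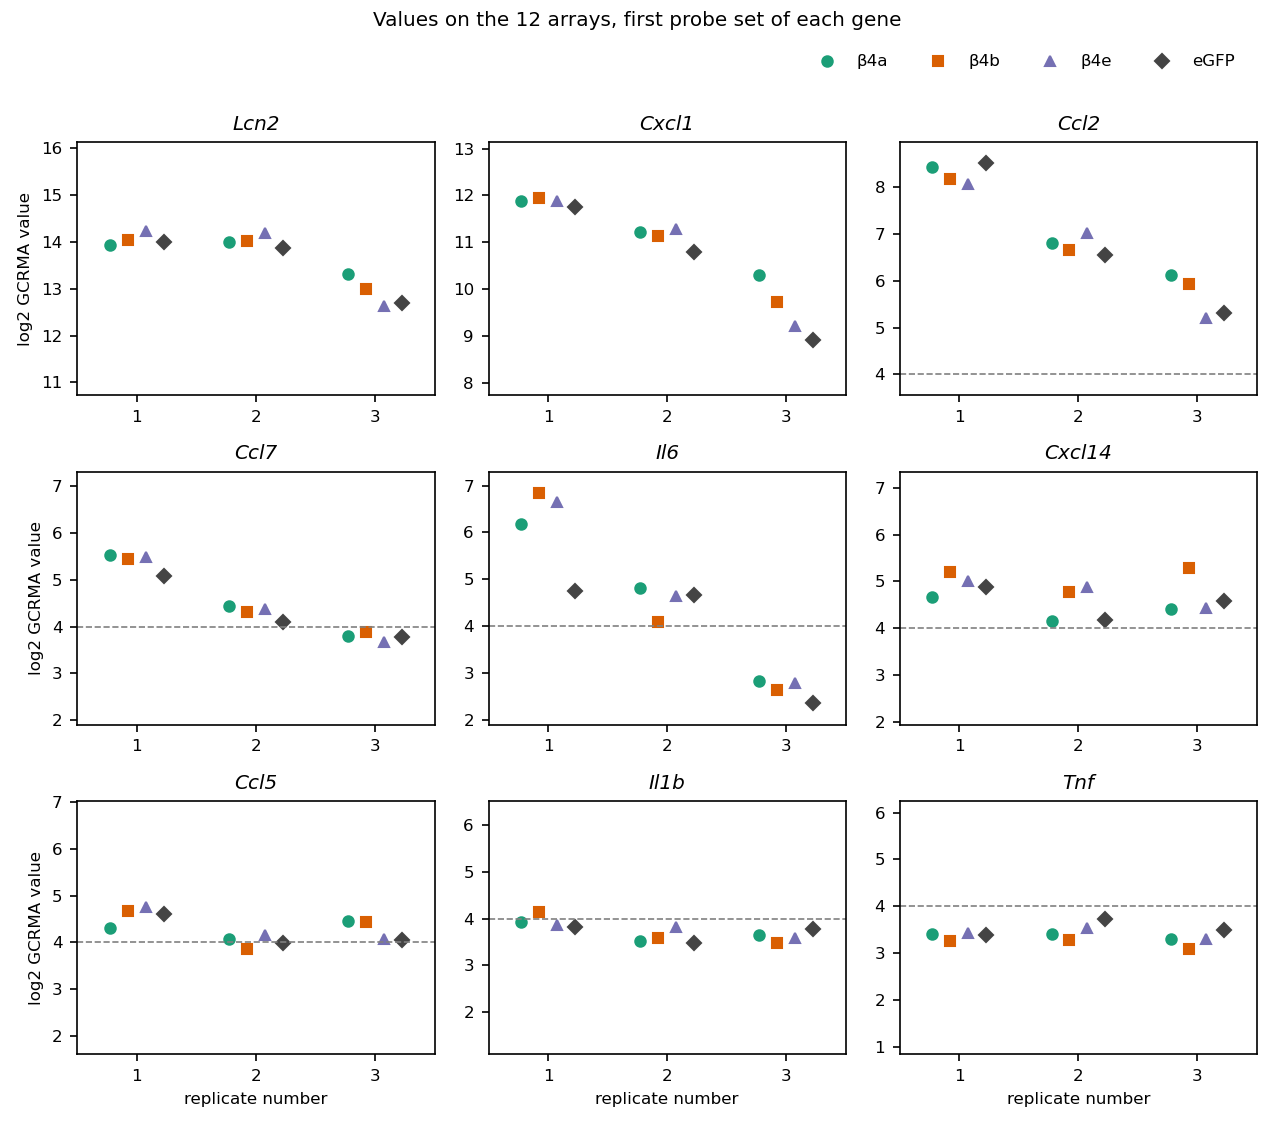
Log2 level (y axis, GCRMA log2 units, each panel spanning the same number of units) of the first probe set of 9 genes on each of the 12 arrays, against the replicate number (x axis); colours are the groups β4a, β4b, β4e and eGFP, and the dashed line is the detection level of 4. Ccl2, Ccl7, Cxcl1 and Il6 are highest in number 1 and lowest in number 3 in every group. Lcn2 is lower in number 3 than in numbers 1 and 2 but still at 12.62 or above, and Il1b and Tnf stay at or near the dashed line.

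The first comparison, which the labels state, asks whether a β4 variant changed expression relative to eGFP. No member passed the test between any variant and eGFP. In each of the 3 contrasts 0 of the 10 tested member probe sets passed the limma test at an adjusted p of 0.05, where 0% of all 23044 tested probe sets passed. All their adjusted p-values were 0.9999 (limma, Benjamini-Hochberg over 23044). At an unadjusted p under 0.05 there were 363 probe sets for β4a (1.58%), 607 for β4b (2.63%) and 83 for β4e (0.360%), and of the 10 member probe sets 0, 1 and 0. The 3 contrasts share the eGFP arrays, so their values are not independent of one another. The median log2 difference of the 7 tested member genes was 0.27 for β4a, 0.22 for β4b and 0.19 for β4e, beside 0.03, 0.04 and 0.03 over all tested genes.

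Because the replicate numbers paired the arrays, the same contrasts were fitted with the number as a block. The block moved the count over all probe sets to 3 for β4a (0.0130%), 3 for β4b (0.0130%) and 0 for β4e (0%, 1277 at an unadjusted p under 0.05). Of the 10 member probe sets, 0 passed in each contrast. At an unadjusted p under 0.05 in that fit there were 3, 1 and 1 member probe sets, beside 15.3%, 19.3% and 5.54% of all probe sets. The share of members at this level was therefore read against a large background.

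Cxcl1 had log2 differences of 0.63 for β4a, 0.44 for β4b and 0.29 for β4e from eGFP. These are for its first probe set, 1419209_at. In the blocked fit the β4a difference had a 95% interval of 0.14 to 1.13 and an adjusted p of 0.249 (limma). The adjusted p was 0.306 for β4b and 0.916 for β4e. On probe set 1441855_x_at the blocked β4e difference was 0.43 (95% interval 0.15 to 0.71, adjusted p = 0.873, limma). That was the member probe set at an unadjusted p under 0.05 for β4e. Set against the eGFP array of the same number, β4a was higher by 0.12, 0.41 and 1.38 (numbers 1, 2 and 3), β4b by 0.20, 0.34 and 0.80, and β4e by 0.11, 0.48 and 0.29. All 9 differences were above 0, on each of the 3 Cxcl1 probe sets. Of all tested probe sets 4.86% had 9 of 9 differences above 0, and the 9 use the same 3 eGFP arrays. The β4a difference rested mostly on number 3, where Cxcl1 was lowest.

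Il6 had log2 differences of 0.69, 0.59 and 0.77 for β4a, β4b and β4e, with blocked 95% intervals of -0.18 to 1.55, -0.27 to 1.46 and -0.10 to 1.63. The numbers did not show this alike. Within number 1 the variants exceeded eGFP by 1.41, 2.08 and 1.89, within number 2 they differed from it by 0.16, -0.58 and -0.03, and within number 3 by 0.48, 0.28 and 0.44, where both sides were near background. The difference therefore lay mainly in the arrays of number 1, where all 3 values subtract the same eGFP array, at 4.76.

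Ccl7 was above its eGFP partner in 8 of 9 differences, by at most 0.46, and its blocked adjusted p-values were 0.289, 0.304 and 0.895 for β4a, β4b and β4e (limma). Ccl2 was above in 5 of 9, with log2 differences of 0.33, 0.13 and -0.02 in the 3 contrasts. Lcn2 differed from eGFP by 0.23, 0.16 and 0.16, and within numbers by between -0.08 and 0.61. Ccl5 differed by 0.07, 0.12 and 0.13. None of these differences exceeded the spread between arrays by the test. By first probe set, the tested genes above eGFP within all 3 numbers were Ccl7, Cxcl1 and Il6 for β4a (19.1% of all tested probe sets), Ccl7, Cxcl1, Cxcl14 and Lcn2 for β4b (22.9%), and Ccl5 and Cxcl1 for β4e (15.3%).

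Cxcl14 (1418457_at) was the member at an unadjusted p under 0.05 in the β4b contrast, where β4b exceeded eGFP by 0.53 (adjusted p = 0.9999, limma). With the block the 95% interval was 0.15 to 0.91 and the adjusted p was 0.153. Within numbers β4b was higher by 0.30, 0.60 and 0.70, β4e differed by 0.12, 0.71 and -0.15, and β4a by -0.22, -0.01 and -0.18. In the contrasts between variants, Cxcl14 was lower in β4a than in β4b by a log2 difference of -0.67 (adjusted p = 0.99998, and 0.997 with the block, limma). The other Cxcl14 probe set gave 0.06 for β4a, 0.02 for β4b and -0.01 for β4e against eGFP, so the differences of the first were not seen on it. Of the 10 member probe sets, 0 passed in each of the 3 pairs of variants, where 0% of all probe sets passed in either fit (at an unadjusted p under 0.05 without the block, 0.243%, 0.664% and 0.759% of all for β4a against β4b, β4a against β4e and β4b against β4e, and 1, 0 and 0 of the members).

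The mean of the 3 variants was also set against eGFP, and 0 of the 10 member probe sets passed without the block (0% of all) and with it (0.0217% of all, 5 probe sets). At an unadjusted p under 0.05 there were 0 of the members and 2.03% of all without the block, and 3 of the members and 17.5% of all with it. In the blocked fit these 3 were Cxcl1 on probe set 1441855_x_at, with 0.32 (95% interval 0.09 to 0.55, adjusted p = 0.177), Cxcl1 on probe set 1419209_at, with 0.46 (95% interval 0.05 to 0.86, adjusted p = 0.242), and Ccl7, with 0.23 (adjusted p = 0.240, limma). In the F test for any difference among the 4 groups 0 of the 10 passed in both fits, as did 0% of all probe sets. At an unadjusted p under 0.05 there were 175 of 23044 probe sets without the block and 2705 with it. Of the 10 member probe sets there were 0 and 2.

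**Figure D2:**
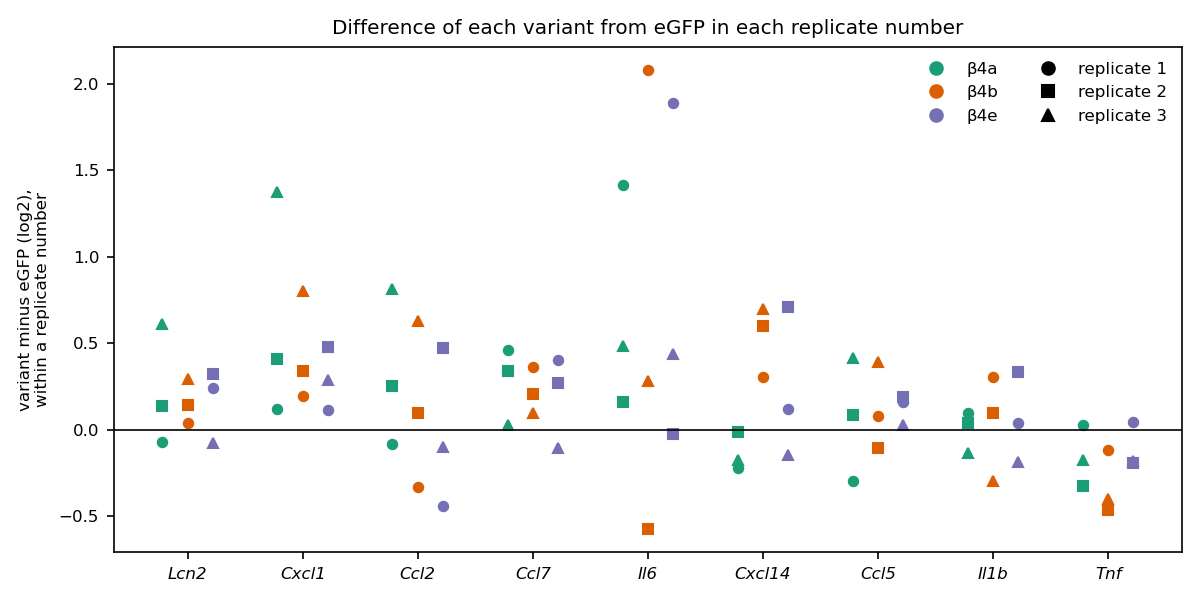
Log2 difference between each variant array and the eGFP array of the same replicate number (y axis, log2 units) for 9 genes (x axis); colours are the variants and marker shapes the replicate numbers. All 9 points of Cxcl1 lie above 0, Il6 spreads from -0.58 to 2.08 with its highest points from number 1, and the points of Ccl2, Lcn2 and Ccl5 fall on both sides of 0.

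The larger differences of these genes lay between the replicate numbers. A fit with group as a covariate compared them, with 4 arrays per number, 1 of each group. Numbers 1 and 2 differed in 53.2% of all tested probe sets (29.0% higher and 24.2% lower in number 1), numbers 1 and 3 in 48.2% (28.5% higher and 19.8% lower in number 1), and numbers 2 and 3 in 32.3% (16.7% higher and 15.7% lower in number 2). Of the 10 member probe sets, 8, 8 and 7 passed in these comparisons and all of them were higher in the number named first. By genes, 6 of 7, 5 of 7 and 5 of 7 passed. The tested members had to be detected in some number to be tested, so these counts describe them and give no support beyond that. The 4 arrays of a number may share 1 preparation, in which case the p-values understate the error.

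Ccl2 differed between all 3 numbers, with means of 8.30 ± 0.21, 6.76 ± 0.21 and 5.65 ± 0.45 for numbers 1, 2 and 3 (SD, n = 4 each). It was 2.90-fold higher in number 1 than in number 2 (adjusted p = 1.87e-04), 6.27-fold higher in number 1 than in number 3 (log2 difference 2.65, adjusted p = 1.86e-05), and higher in number 2 than in number 3 by 1.11 (adjusted p = 0.00283, limma). No array of one number overlapped those of another. Ccl7 averaged 5.39 ± 0.21, 4.31 ± 0.15 and 3.79 ± 0.08 (SD, n = 4 each), and its log2 difference between numbers 1 and 3 was 1.60 (adjusted p = 7.07e-06, limma). The number 3 mean of Ccl7 was near background, so the size of that difference is not exact.

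Cxcl1 averaged 11.87 ± 0.08, 11.11 ± 0.21 and 9.53 ± 0.61 in numbers 1, 2 and 3 (SD, n = 4 each). It was higher in number 1 than in number 2 by 0.76 (adjusted p = 0.00837), and higher in number 1 than in number 3 by 2.33, or 5.04-fold (adjusted p = 2.74e-05, limma). The spread among the 4 arrays of number 3 was the widest, with eGFP lowest and β4a highest. The other Cxcl1 probe sets differed between numbers 1 and 3 by 3.16 and 1.24 in the same direction.

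Number 1 was highest and number 3 lowest, without overlap of any array, for Ccl2, Ccl7 and all 3 Cxcl1 probe sets, as for 1.12% of all tested probe sets. Il6 had the same order by its means, 6.10 ± 0.94, 4.55 ± 0.32 and 2.65 ± 0.22 (SD, n = 4 each), while the eGFP array of number 1, at 4.76, lay below the highest array of number 2, at 4.82. Its log2 difference between numbers 1 and 3 was 3.45 (adjusted p = 5.79e-05, limma), against values near background in number 3.

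Lcn2 was alike on the arrays of numbers 1 and 2. It averaged 14.05 ± 0.13 in number 1 and 14.02 ± 0.13 in number 2, a log2 difference of 0.03 (adjusted p = 0.888, 95% interval -0.30 to 0.35), and 12.91 ± 0.31 in number 3 (SD, n = 4 each). Number 3 was lower than number 1 by 2.21-fold (adjusted p = 2.50e-04, limma) and lower than number 2 by a like amount (log2 difference 1.11, adjusted p = 6.59e-04, limma).

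Ccl5 and the first Cxcl14 probe set did not have that order. Ccl5 was higher in number 1 than in number 2 by 0.57 (adjusted p = 0.00758, limma), and the differences to number 3 did not pass. Cxcl14 (1418457_at) was higher in number 1 than in number 2 by 0.45 (adjusted p = 0.0278, limma) and its F test over the numbers gave an adjusted p of 0.0576. The other Cxcl14 probe set, 1418456_a_at, was higher in number 1 than in number 3 by 0.34 (adjusted p = 0.0150, limma), with values close to the detection level, and its other differences between numbers did not pass. In that F test 9 of the 10 member probe sets passed, beside 65.2% of all probe sets. Tested without the filter, so that all 12 member probe sets were included, 8, 9 and 7 passed (32.5%, 29.6% and 17.5% of all probe sets). Il1b was then higher in number 1 than in number 2 by 0.34 (adjusted p = 0.0354, limma), on values near background. It was also higher in number 1 than in number 3, by 0.32 (adjusted p = 0.0497, limma). Tnf did not pass.

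**Figure D3:**
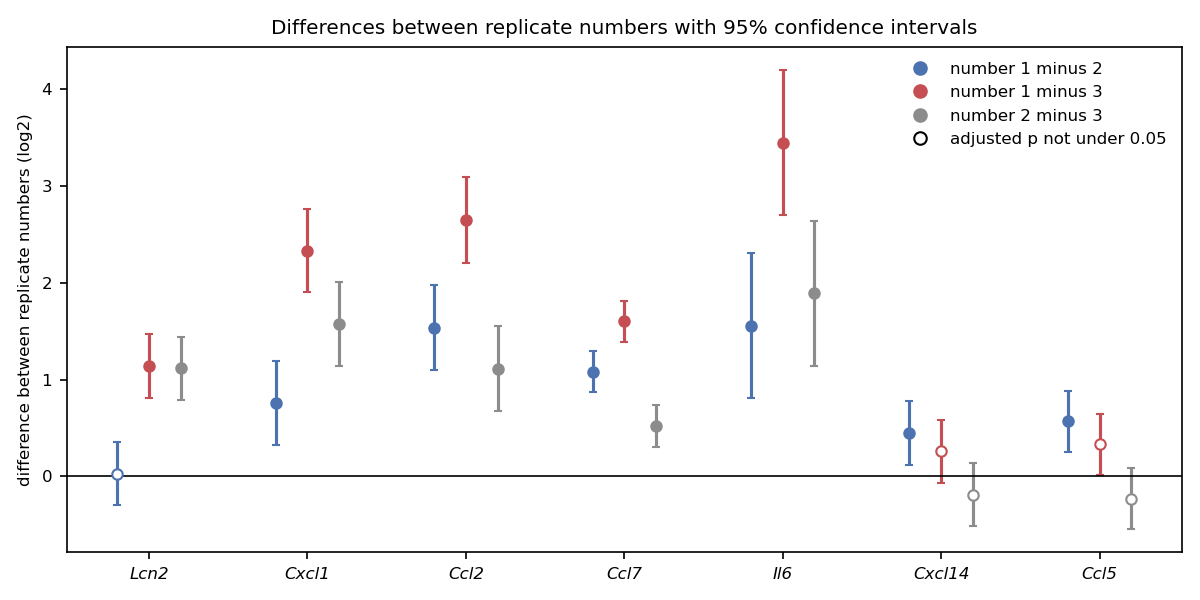
Log2 difference between replicate numbers (y axis, log2 units, with 95% intervals from the limma fit with group as a covariate) for the 7 tested genes (x axis); colours are the comparisons 1 minus 2, 1 minus 3 and 2 minus 3, and filled markers have an adjusted p under 0.05. Il6, Ccl2 and Cxcl1 differ most between numbers 1 and 3 (3.45, 2.65 and 2.33), and Lcn2 lies at 0.03 between numbers 1 and 2.

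The share of a gene's variation that lay between replicate numbers was 96.1% for Ccl7, 94.2% for Ccl2, 90.0% for Cxcl1, 89.5% for Lcn2, 88.5% for Il6 and 67.1% for Ccl5, beside a median of 64.2% over all tested probe sets. The first Cxcl14 probe set had 26.8% between numbers and 51.8% between groups (median over all, 12.0%), while the other Cxcl14 probe set had 71.3% between numbers and 2.76% between groups. Over the 12 arrays Ccl2 went with Ccl7 (Pearson r = 0.954) and with Cxcl1 (0.944), Cxcl1 with Lcn2 (0.946), and Ccl7 with Il6 (0.935), while the first Cxcl14 probe set had r between 0.13 and 0.63 with the others. These points share their replicate numbers, so the correlations largely restate the differences between numbers.

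By the same measure over 10970 genes, the genes most alike were Sec61a1, Plch1 and Serpina3n for Ccl2 (r = 0.985, 0.980 and 0.980), Il1rap, Matn2 and Kdm5d for Cxcl1 (0.993, 0.984 and 0.981), and Igfbp7, Cp and Emc7 for Lcn2 (0.979, 0.969 and 0.966). For Il6 they were Dcn, Tinf2 and Acss2 (0.965, 0.963 and 0.962), for Ccl7 Pard6a, Sap30 and Uvrag (0.981, 0.980 and 0.977), for Ccl5 Rpl11, Serpinf1 and Hes6 (0.952, 0.945 and 0.942), and for Cxcl14 Lzic, Nat8f1 and Gpsm2 (0.888, 0.859 and 0.842). Kdm5d, the Y-linked gene given above, was among them, and its own levels separated the numbers.

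Other genes of these pathways were counted by their first probe set in the same fits. Against eGFP, 0 genes of every list passed for any variant, with or without the block. Between the numbers the counts are read beside the share of all tested probe sets, which for numbers 1 and 3 was 28.5% higher and 19.8% lower in number 1. Among other acute-phase and reactive genes, 12 of 12 tested were higher in number 1 than in number 3 (median log2 difference 1.72, beside 0.16 over all tested genes), and 4 of 12 passed between numbers 1 and 2. Ptx3, a pentraxin that binds microbes, differed by 1.94 between numbers 1 and 2 and by 3.64 between 1 and 3 (adjusted p = 1.23e-06, limma). Serpina3n, a serine protease inhibitor of reactive astrocytes, differed by 2.90 between numbers 1 and 3, Saa3, a serum amyloid A protein, by 2.51 and Timp1, an inhibitor of metalloproteinases, by 2.28, and all 3 passed.

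Of 14 other chemokines, 9 were higher and 2 lower in number 1 than in number 3 (median 1.12). Between numbers 1 and 2, 7 were higher and 1 lower in number 1, beside 29.0% and 24.2% of all tested probe sets. Between numbers 2 and 3, 3 were higher and 2 lower in number 2 (median 0.17), beside 16.7% and 15.7% of all. Cxcl2 and Cxcl3, which like Cxcl1 attract neutrophils, averaged 6.10 and 7.08 in number 1 and were below the detection level in number 3 (3.48 and 3.19), so that their differences passed but have no exact size. Cxcl2 was also below it in number 2 (3.95). Ccl3, a macrophage chemokine, differed by 2.01 and Cxcl10, an interferon-induced chemokine, by 0.93 between numbers 1 and 3, and both passed. Of 7 other cytokines, 5 were higher in number 1 than in number 3 and 0 lower. Il33, an alarmin of the IL-1 family, was close in numbers 1 and 2 (log2 difference 0.0050, adjusted p = 0.984) and higher in number 1 than in number 3 by 4.17 (adjusted p = 2.36e-06, limma). Il1rn, the antagonist of the IL-1 receptor, averaged 4.36 in number 1 and was below the detection level in numbers 2 and 3 (3.20 and 3.23), so that it passed the filter through number 1 and its differences have no exact size. Il18, a cytokine of the IL-1 family, differed by 0.51 and Csf1, the growth factor of macrophages, by 0.77 between numbers 1 and 3.

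Among receptors and signal transducers 5 of 15 were higher and 3 lower in number 1 than in number 3, and among NF-kB pathway and feedback genes 9 of 20 were higher and 1 lower. In all, 8 of 15, 10 of 20 and, among the JAK-STAT3 and C/EBP factors, 4 of 9 passed, beside 48.2% of all tested probe sets. These totals are near the background. By direction, 28.5% of all tested probe sets were higher and 19.8% lower. Between numbers 1 and 3 the receptor counts show nothing particular beside these shares. The genes of the other 2 lists that passed were mostly or only higher in number 1, and this lean was not tested. Between numbers 1 and 2, 11 of 15 receptors and signal transducers passed (9 higher and 2 lower in number 1). NF-kB genes had 9 of 20 (7 higher and 2 lower), and JAK-STAT3 and C/EBP factors 7 of 9 (6 higher and 1 lower). Of all tested probe sets 53.2% passed there (29.0% higher and 24.2% lower), and the counts were not tested against these shares. Between numbers 1 and 3 Il1rap, a subunit of the IL-1 receptor, differed by 1.91 and Il1r1, the receptor itself, by 0.88. Ackr3, a scavenging receptor of Cxcl12, differed by 1.76, and Ccr1, a receptor of Ccl3, Ccl5 and Ccl7, by 1.18, against a number 3 mean close to the detection level. Ptgs2, the inducible prostaglandin synthase, differed by 3.23, and Nfkbiz, a nuclear regulator of NF-kB whose targets include Il6 and Lcn2, by 1.12. Tnip1, an inhibitor of NF-kB signalling, differed by 0.74, and Bcl3, a nuclear IkB protein, by 0.41 near the detection level. The receptors of Ccl2 and Cxcl1, Ccr2 and Cxcr2, did not pass the filter, and Slc22a17, a receptor of Lcn2, was lower in number 1 than in number 3 by a log2 difference of -0.63 (adjusted p = 0.00133, limma). Of 9 JAK-STAT3 and C/EBP factors, 4 were higher and 0 lower: Cebpb differed by 1.11, Jak1 by 0.45 and Cebpd by 1.60 between numbers 1 and 3, and Socs3, the feedback inhibitor of IL-6 signalling, by 0.81. Of 9 other complement genes 4 were higher and 3 lower. C1ra and C1s1, proteases of the C1 complex, were among the higher, with number 3 means below the detection level (3.32 and 3.40). Cfp, which stabilises the alternative pathway's convertase, was lower in number 1 by -0.98, and C1qa, a subunit of C1q made by microglia, was lower in number 1 by -1.59 (adjusted p = 8.30e-05, limma).

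Markers of other cells are given beside the members, and in these bulk samples fewer cells of a type and less RNA per cell cannot be told apart. Between numbers 1 and 3, 4 of 13 microglial, 3 of 14 astrocyte and 5 of 11 granule cell markers passed. That is below the 48.2% of all tested probe sets (28.5% higher and 19.8% lower in number 1). Of the fibroblast and meningeal markers 8 of 11 passed and of the oligodendrocyte markers 6 of 8, which is above that share. Of 13 tested microglia and macrophage markers, 0 were higher and 4 lower in number 1 than in number 3. Csf1r, the receptor of their growth factor, was lower by -0.98 and Cx3cr1, the fractalkine receptor, by -0.90, while the defining markers Aif1 and Itgam did not pass the filter. The summed microglial level was 13.27 to 13.93 in number 1, 13.46 to 14.04 in number 2 and 13.83 to 14.26 in number 3 (log2 of 17 summed genes), and the ranges of numbers 1 and 3 overlapped. Of 11 fibroblast and meningeal markers, 7 were higher and 1 lower in number 1 than in number 3, with Dcn, a matrix proteoglycan, at 8.42 in number 1 and 6.91 in number 2 but below the detection level in number 3 (3.75), so that the size of its difference (adjusted p = 8.62e-06, limma) is not exact. Their sums were 10.23 to 10.88, 10.11 to 10.56 and 9.82 to 10.39 in numbers 1, 2 and 3, and the ranges overlapped. Of 8 oligodendrocyte markers 6 were higher and 0 lower, with sums of 14.82 to 14.88, 14.52 to 14.67 and 14.20 to 14.44, which did not overlap.

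Astrocyte and Bergmann glia markers had 1 of 14 higher and 2 lower in number 1 than in number 3, and their sums were 15.13 to 15.39, 14.55 to 15.25 and 14.72 to 15.93. Against eGFP 0 of them passed. For each variant 14 of 14 had a mean difference above 0, in contrasts that share the same eGFP arrays. The medians were 0.33, 0.54 and 0.35 for β4a, β4b and β4e, beside 0.03, 0.04 and 0.03 over all tested genes. The replicate numbers did not show this alike. In number 1 the eGFP array had the highest sum (15.39, against 15.13, 15.14 and 15.27 for β4a, β4b and β4e). In numbers 2 and 3 it had the lowest (14.55 and 14.72). Granule cell markers had 2 of 11 higher and 3 lower (sums 16.62 to 16.78, 16.62 to 16.79 and 16.66 to 16.76). Of 10 endothelial and pericyte markers 0 passed the filter, and 1 of 12 neutrophil, T and B cell markers did. The 3′ minus 5′ difference of Gapdh, a measure of RNA integrity, was 0.09 to 0.40 in number 1, 0.05 to 0.12 in number 2 and -0.05 to 0.07 in number 3. That of Actb overlapped between the numbers, with 0.82 to 1.09, 0.85 to 1.02 and 0.85 to 0.96. The part of these markers, of the 3′ minus 5′ measures and of the sex-linked genes in the differences between numbers was not tested, and they cannot be told apart from the replicate number.

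**Figure D4:**
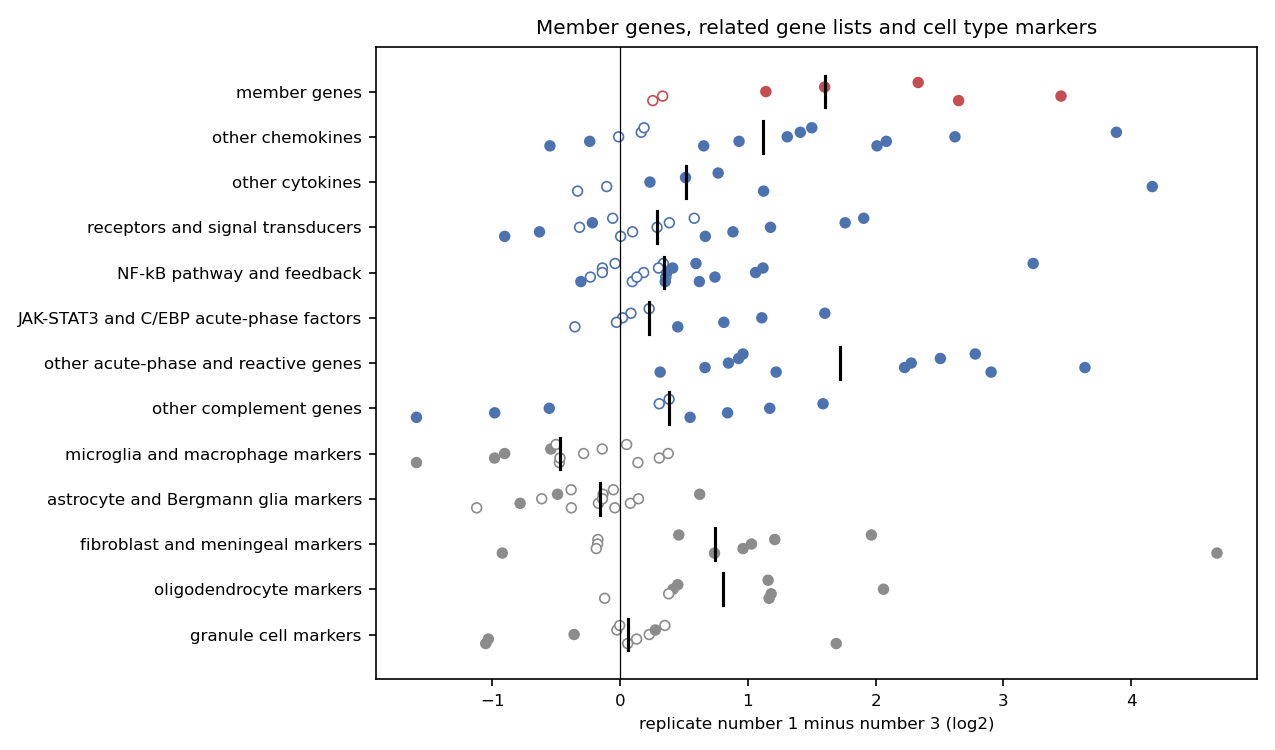
Log2 difference, replicate number 1 minus number 3 (x axis, log2 units), of each tested gene, by list (y axis). Colours mark the member list (red), the other inflammatory lists (blue) and the cell type markers (grey). Filled points have an adjusted p under 0.05 and black bars are list medians. The 12 other acute-phase genes all lie above 0 with a median of 1.72, and the microglial markers have a median of -0.47.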

How the data were processed

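RNA of 12 cultures (500 ng each) was hybridised to 1 Affymetrix mouse 3′ array per culture. The authors deposited log2 intensities summarised per probe set with GCRMA, per the submitters' processing notes; its version is not given in the sources used here. They were used as deposited; array medians lay between 3.84 and 3.9. GCRMA corrects for probe sequence and normalizes between arrays, which compresses values near background, so differences there are not exact. Of the probe sets, 34945 were annotated to a single symbol, 932 to more than 1, and 9160 had no symbol. A gene's first probe set is the one with the highest mean. After 64 controls were left out, a probe set was tested when above 4 in at least 3 of 12 arrays (23044).

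One linear model per question was fitted over all 12 arrays with limma 3.58.1 in R 4.3.3 (8 residual degrees of freedom for groups, 6 with the replicate number as a block), with two-sided tests and Benjamini-Hochberg adjustment over all tested probe sets, threshold 0.05. The script was tested on simulated data. The pairing was taken from the numbers in the titles and checked as the report states: all 18 same-number pairs correlated above 0.1, the lowest at 0.699. The members, the pathway and marker lists (14) and the tests were chosen with earlier results of these data known. Named were all members, the 3 genes most correlated with each tested member, of each pathway list the genes with the 4 smallest p between numbers 1 and 3 among those that passed, and of the cell types some of these or defining markers; Slc22a17, Ccr2, Cxcr2 and the sex-linked genes were named for their role after their values were seen. Alternatives were other filters, scalings, a variance trend, the block and leaving out each array.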

Additional observations from a re-analysis of the deposited data

How the results depend on the processing

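With the replicate number as a block, the count of probe sets that passed was 3 for β4a, 3 for β4b and 5 for the mean of the variants against eGFP, where it was 0 without it; the block changed no call of a member. At a detection level of 3 instead of 4, 8 genes were detected on every array in place of 4. Leaving out 1 array unbalances the replicate numbers in the fit without the block, and the log2 differences from eGFP, none of which passed, then took both signs, except those of Cxcl14 for β4b and β4e. For β4a they ran from -0.41 to 1.19 for Ccl2, -0.0482 to 0.26 for Ccl5, -0.20 to 0.67 for Ccl7, -0.15 to 1.27 for Cxcl1, -0.0996 to 1.57 for Il6, -0.19 to 0.46 for Lcn2 and -0.33 to 0.0314 for Cxcl14. For β4b they ran from -0.61 to 0.99 for Ccl2, -0.055 to 0.35 for Ccl5, -0.23 to 0.60 for Ccl7, -0.34 to 1.08 for Cxcl1, -0.57 to 1.54 for Il6 and -0.25 to 0.50 for Lcn2. For β4e they ran from -0.76 to 0.84 for Ccl2, -0.0896 to 0.32 for Ccl5, -0.30 to 0.61 for Ccl7, -0.49 to 1.08 for Cxcl1, -0.21 to 1.72 for Il6 and -0.25 to 0.69 for Lcn2. The difference of Lcn2 between numbers 1 and 2 ran from -0.0549 to 0.13. Between numbers, Ccl2, Ccl7, Il6 and Cxcl1 (1419209_at) passed in all 3 comparisons without any 1 of the 12 arrays, and Lcn2 in the 2 comparisons with number 3. Ccl7 and Il6 passed the filter through numbers 1 and 2 only, so their comparisons with number 3 describe them and give no support beyond that. Other calls depended on the setting: Cxcl14 between numbers 1 and 2 passed in 6 of the 12 such fits and had an adjusted p of 0.109 without the group term, Cxcl1 probe set 1457644_s_at passed in 4 of 12 there and had an adjusted p of 0.0549 without the filter, and Ccl5 between numbers 1 and 3 passed after quantile normalization (adjusted p = 0.0356, limma). The number of member probe sets that passed ran from 6 to 9 between numbers 1 and 2, from 7 to 9 between 1 and 3, and stayed at 7 between 2 and 3. Values near 4 are limited by signal over background.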
